A study of Eumeta variegata with 6 samples.

Results

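The proteins described here load, dock, release and recycle transmitter vesicles and hold the 2 sides of a synapse together, measured as transcripts in the head of a bagworm moth, Eumeta variegata (Clania variegata in the study's title). A sequence was taken as a member when the authors' protein description held the letters synap (as in synaptotagmin, synaptic vesicle or synaptobrevin) or a word such as syntaxin, neurexin, neuroligin, dynamin, unc-13 or vesicular glutamate. Names with synaptonemal or synaptic complex were dropped. This rule found 91 of the 41283 assembled sequences, of which 13469 carried a usable protein name. The rule uses names and no measured value, but it was chosen with earlier results of these data known. The description came from the NR protein database for 84 members and from Swiss-Prot for 7. No description in the table used here held the words complexin, bruchpilot, unc-18, RIM-binding, discs large or vesicular GABA, so those proteins are not analysed here by name.

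The libraries were 3 of male heads and 3 of female heads, with no treatment named. Age and stage are not given in the labels, nor whether a library came from 1 animal or a pool, so p-values measure only the spread between these libraries, which may be technical. In bagworms the adult male flies and the adult female is wingless. The stated aim of the study was to find neuropeptides and their receptors.

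In a nerve terminal, vesicles are filled by transporters, held near the membrane by active zone proteins, and fused by the SNARE proteins synaptobrevin, syntaxin and the synaptosomal-associated proteins. Synaptotagmin senses the calcium that triggers fusion, and dynamin and synaptojanin help to retrieve the membrane afterwards. Neurexins and neuroligins bind each other across the cleft. This machinery is best known from Drosophila, the nematode Caenorhabditis elegans and mammals, and several of its families also have members that work in the Golgi, endosomes or mitochondria of every cell.

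Values are FPKM, a level corrected for the length of the sequence and the size of the library, as calculated by the authors. The table carries no read totals, so depth is unknown. FPKM summed to between 480295 and 492028 per library. A second division of the libraries crossed the sexes. In males 2 and 3 and female 2, zeros were rarer among sequence names with the ending 1 (2.96% to 5.42%) than among those with the ending 2 (9.84% to 12.6%). In male 1 and females 1 and 3 it was the other way round (10.7% to 13.2% and 4.25% to 5.96%). For called members the log2 fold change is therefore also given within each library set, first as males 2 and 3 against female 2 and then as male 1 against females 1 and 3. One sex has just 1 library in each set, which left no test there.

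The machinery was present in both sexes, with slightly higher sums in males on the deposited FPKM scale. The 91 members together had 749.7, 754.2 and 722.8 FPKM in males 1, 2 and 3, against 698.9, 693.4 and 695.6 FPKM in females 1, 2 and 3. All 3 male sums lay above all 3 female sums, and this sum was not tested. The separation depends on the scale. Median-of-ratios scaling divides each library by its typical ratio to the others. Its factors were 1.041, 1.072 and 1.009 in males 1, 2 and 3, and 0.983, 0.998 and 0.989 in females 1, 2 and 3. Dividing by them lowers the male sums and raises the female sums, and male 2 then lies below female 1. Synaptobrevin alone made up 15.3% of the members' FPKM, and the 5 most abundant members 37.0%. By mean level over the 6 libraries, 22 members reached 10 FPKM, 36 lay between 1 and 10 FPKM and 33 lay below 1 FPKM. In bulk tissue, fewer neurons and less RNA per neuron cannot be told apart.

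A total of 58 members reached 1 FPKM in at least 3 of the 6 libraries and were tested, and 33 did not. The sexes were compared on log2(FPKM + 1) with limma over all 35198 sequences that passed this filter, with Benjamini-Hochberg adjustment and a threshold of 0.05. Among the 58, 11 were called: in 8 (13.8%) males were higher and in 3 (5.17%) females. Of all sequences tested 7.11% were called, 4.4% higher in males and 2.7% higher in females, and of those with a usable name 11.9% were, 7.01% and 4.88%. The median log2 fold change of the members tested, male minus female, was 0.17, beside 0.05 over all sequences tested. Values did not overlap, with males higher, in 39.7% of the members tested, beside 18.2% of all sequences tested and 25.8% of those with a usable name. With females higher it was 12.1% of the members tested, beside 12% and 16.8%. The 11 calls became 5 when the library sets were a term of the model, a fit called the library split below, and 4 without male 1, 3 without male 2 or male 3, 8 without female 1, 5 without female 2 and 6 without female 3. Of the 34 members tested whose names ended in 1, 5 rose in males and 1 fell (median log2 fold change 0.30), and of the 24 ending in 2, 3 rose and 2 fell (0.04).

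**Figure D1:**
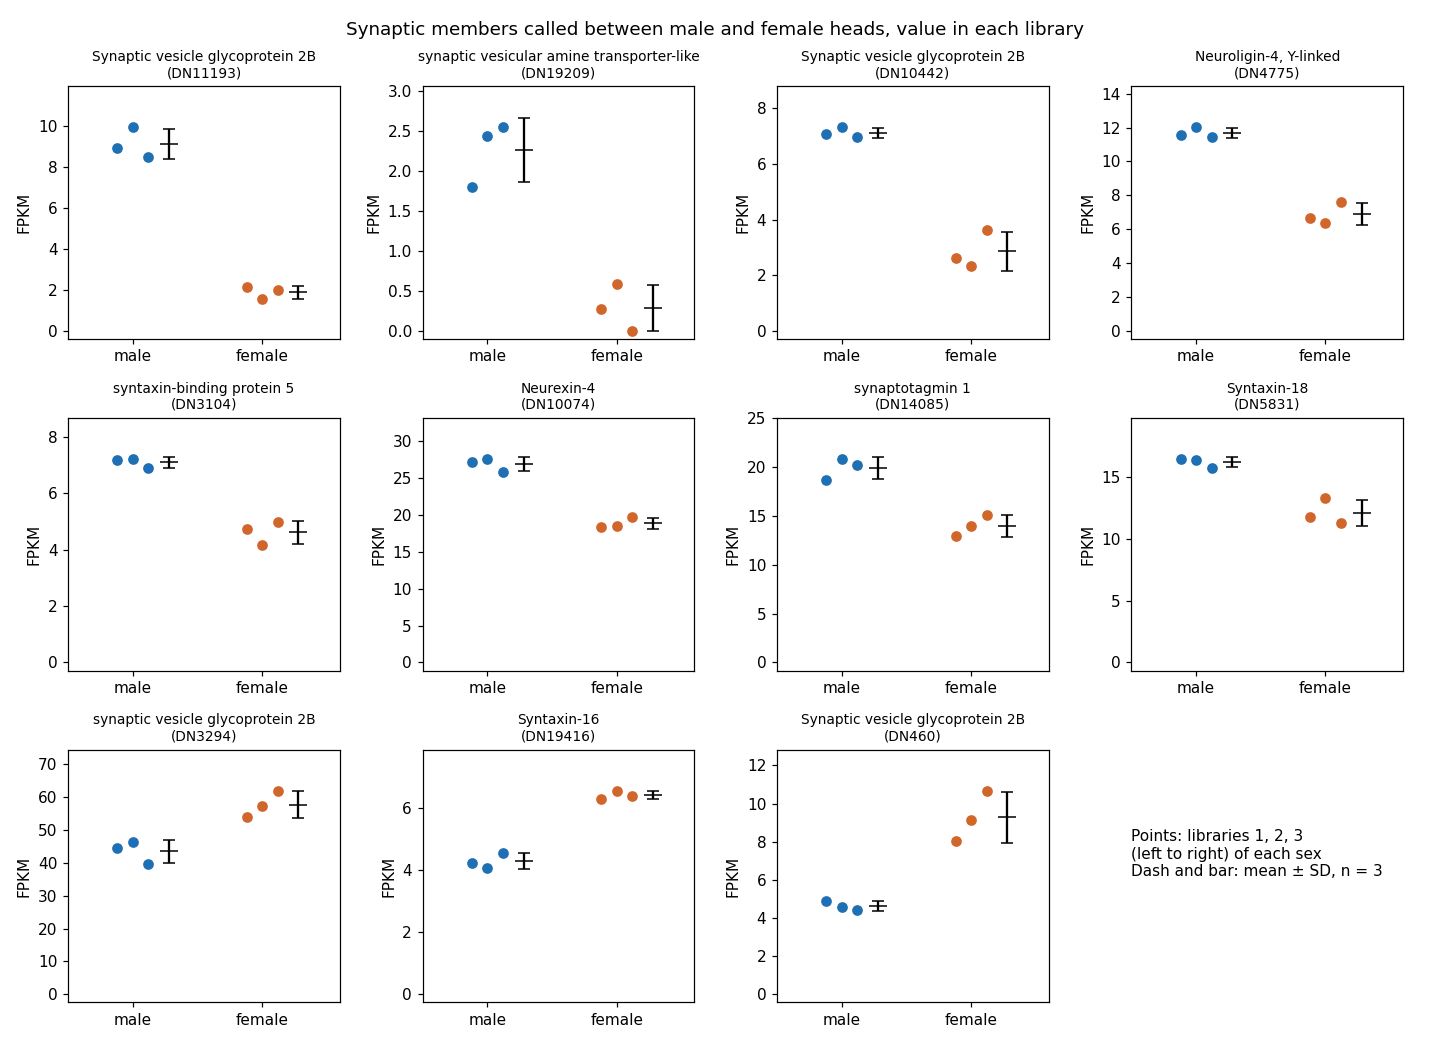
FPKM (vertical axes) in each library of the 11 members called between the sexes, with 3 male libraries to the left of 3 female libraries in each panel; the dash and bar give mean ± SD. No panel has overlapping sexes, and the 8 members higher in males come before the 3 higher in females.

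The core fusion proteins were among the most abundant members, and none of them was called. Synaptobrevin (TRINITY_DN17410_c0_g1_i2_2), the SNARE on the vesicle, had 109.6, 108.3 and 103.1 FPKM in males, against 127.5, 108.3 and 104.5 FPKM in females. The sexes overlapped, and the log2 fold change was -0.08 (SE 0.08, limma adjusted p = 0.63). Syntaxin-1A (TRINITY_DN161_c0_g1_i10_2), its partner on the plasma membrane, had 44.4, 44.8 and 40.2 FPKM in males, against 37.0, 40.6 and 37.0 FPKM in females. Males ran slightly higher but male 3 lay below female 2 (limma: log2 fold change 0.17 with SE 0.06, adjusted p = 0.18). All 3 sequences named syntaxin-1A had a log2 fold change above 0, from 0.16 to 0.43, without a call. The 4 tested sequences named synaptosomal-associated protein 25 or 29, another SNARE partner, lay between -0.08 and 0.12 on the log2 fold change scale. YKT6, a SNARE of Golgi and endosome traffic, averaged 19.1 FPKM in males and 15.4 FPKM in females and was not called either.

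Of the 17 tested SNAREs and SNARE regulators, 2 rose in males and 1 fell, with a median log2 fold change of 0.11. Syntaxin-binding protein 5 isoform X6 (TRINITY_DN3104_c0_g1_i1_2), known as tomosyn, which in nematodes and mammals holds back SNARE assembly, had 7.18, 7.23 and 6.88 FPKM in males, against 4.73, 4.17 and 4.97 FPKM in females. Every male lay above every female (limma: log2 fold change 0.53 with SE 0.10, adjusted p = 0.032). A further tomosyn-like sequence, Syntaxin-binding protein 5-like, averaged 8.90 FPKM in males and 7.57 FPKM in females and was not called. Within the library sets the log2 fold change of the isoform X6 sequence was 0.64 and 0.48. No call remained under the library split (adjusted p = 0.066) or when any 1 of the 6 libraries was left out, and its adjusted p ranged from 0.017 to 0.11 over the alternatives.

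The other 2 called SNAREs carry names that in mammals belong to membranes other than the synapse. Syntaxin-16 (TRINITY_DN19416_c1_g2_i1_2), a SNARE of the trans-Golgi network, had 4.24, 4.06 and 4.56 FPKM in males, against 6.30, 6.56 and 6.39 FPKM in females (limma: log2 fold change -0.49 with SE 0.10, adjusted p = 0.037). It was lower in every male than in any female, with log2 fold changes of -0.51 and -0.49 within the library sets. One Syntaxin-18 sequence (TRINITY_DN5831_c0_g2_i1_2), named for a SNARE of the endoplasmic reticulum, had 16.5, 16.4 and 15.8 FPKM in males, against 11.8, 13.3 and 11.3 FPKM in females (limma: log2 fold change 0.40 with SE 0.07, adjusted p = 0.032). The other Syntaxin-18 sequence (TRINITY_DN14352_c0_g1_i1_2) overlapped between the sexes, at 19.9 ± 1.5 FPKM in males and 21.9 ± 3.5 FPKM in females (SD, n = 3 each; limma adjusted p = 0.60). These sequences share a name but only the second holds a Pfam domain of that protein. Leaving out any 1 of the 6 libraries ended the call of Syntaxin-16, and any 1 but female 2 that of Syntaxin-18. Both ended with the library split (adjusted p = 0.090 and 0.084), and over all alternatives they reached 0.12 for each, from 0.020 and 0.019.

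**Figure D2:**
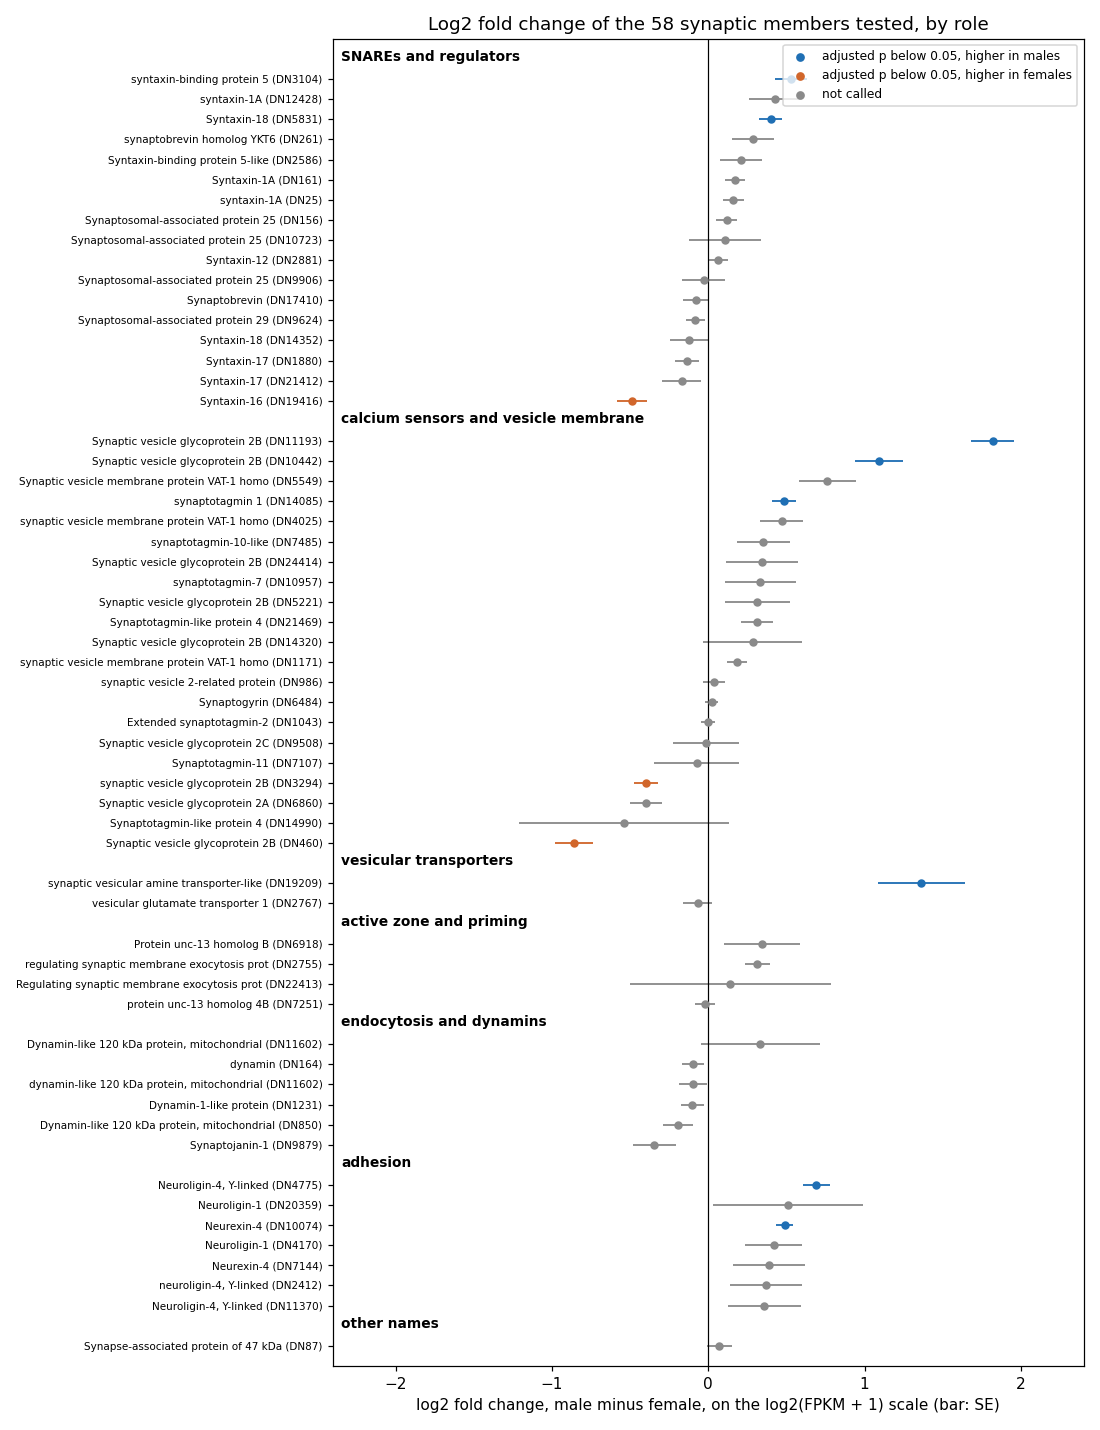
Log2 fold change, male minus female, on the log2(FPKM + 1) scale (horizontal axis; bars are SE) of the 58 members tested, grouped by role down the page. All 7 adhesion members lie right of 0, 5 of the 6 endocytosis members lie left of it, and the vesicle membrane group spans -0.86 to 1.82. Of all sequences tested, 54.7% had a log2 fold change above 0.

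Among calcium sensors and vesicle membrane proteins, 3 of 21 tested rose in males and 2 fell, and the median log2 fold change was 0.28. Synaptotagmin 1 isoform X3 (TRINITY_DN14085_c0_g1_i12_2), named for the calcium sensor of fast release, had 18.7, 20.8 and 20.2 FPKM in males, against 12.9, 13.9 and 15.1 FPKM in females. No female reached the lowest male, and the mean in males was 1.43 times that in females (limma: log2 fold change 0.48 with SE 0.08, adjusted p = 0.019). Within the library sets the log2 fold change was 0.53 and 0.40. It was not called with the library split (adjusted p = 0.061), without any 1 of the males or without female 2, and its adjusted p ranged from 0.010 to 0.082 over the alternatives. Of the other tested synaptotagmins, synaptotagmin-10-like averaged 3.02 FPKM in males and 2.15 FPKM in females. Synaptotagmin-7, the slow sensor in mammals, averaged 1.18 FPKM in males and 0.73 FPKM in females. Neither was called, although their sexes did not overlap. For Synaptotagmin-7 only males reached 1 FPKM, so it passed the filter through that sex alone. The more abundant Synaptotagmin-like protein 4, which in mammals links Rab GTPases to secretory granules, had 14.0 ± 0.2 FPKM in males and 11.2 ± 1.6 FPKM in females (SD, n = 3 each; limma adjusted p = 0.13). Synaptotagmin-11 overlapped between the sexes, and those named synaptotagmin-14 or synaptotagmin-15 lay under the filter.

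Extended synaptotagmin-2 (TRINITY_DN1043_c0_g1_i14_2), which tethers the endoplasmic reticulum to the plasma membrane and is no vesicle protein, had 30.5 ± 0.8 FPKM in males and 30.6 ± 0.9 FPKM in females (SD, n = 3 each). Its log2 fold change was 0.00 (SE 0.05, limma adjusted p = 0.99). Synaptogyrin, a membrane protein of synaptic vesicles in other animals, lay within 26.9 and 27.9 FPKM in all 6 libraries. Both had the tightest standard errors in this group. The 3 sequences named VAT-1 homolog-like, after a vesicle protein of the electric ray, were each higher in every male than in every female without a call. The most abundant of them (TRINITY_DN1171_c0_g1_i30_2) had 36.2, 38.9 and 33.8 FPKM in males, against 32.8, 30.5 and 32.2 FPKM in females (limma: log2 fold change 0.18 with SE 0.06, adjusted p = 0.16). All 3 synapsin sequences, named for the protein that clusters vesicles, stayed below 1 FPKM in every library and were not tested.

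The sequences named synaptic vesicle glycoprotein 2 (SV2) went in both directions. SV2 proteins are vesicle membrane proteins of the Major Facilitator Superfamily, a large family of transporters, and Pfam domains of that family or of its sugar transporter branch were listed for all 10 of them. The Major Facilitator domain was also listed for vesicular glutamate transporter 1, so it does not identify SV2. The letters in these names are uncertain too. The Swiss-Prot match was SV2A for the SV2B sequence TRINITY_DN3294_c0_g3_i1_2 and SV2C for the SV2B sequence TRINITY_DN460_c0_g1_i28_1. For the others it carried the same letter as the name. Each of the 10 sequences came from a different assembly cluster. Of the 9 tested, 2 rose in males, 2 fell and 5 were not called.

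Among members tested, the largest change on the log2(FPKM + 1) scale was that of an SV2B sequence (TRINITY_DN11193_c0_g2_i8_1), with 8.90, 9.94 and 8.49 FPKM in males, against 2.13, 1.52 and 1.97 FPKM in females. The mean in males was 4.86 times that in females (limma: log2 fold change 1.82 with SE 0.14, adjusted p = 0.0025). The difference was 2.02 and 1.70 within the library sets, and the call was kept under every alternative run. A second SV2B sequence (TRINITY_DN10442_c0_g1_i2_1) had 7.06, 7.34 and 6.97 FPKM in males, against 2.60, 2.32 and 3.64 FPKM in females. Its mean in males was 2.5 times that in females (limma: log2 fold change 1.09 with SE 0.15, adjusted p = 0.013). That call held with the library split (adjusted p = 0.037) and was lost without any 1 of the males, with an adjusted p of 0.0051 to 0.065 over the alternatives.

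A further SV2B sequence (TRINITY_DN460_c0_g1_i28_1) ran the other way, with 4.91, 4.58 and 4.42 FPKM in males, against 8.03, 9.11 and 10.7 FPKM in females. Every male lay below every female (limma: log2 fold change -0.86 with SE 0.12, adjusted p = 0.012). Its call held with the library split (adjusted p = 0.045) and ended without male 2, male 3 or female 2, with an adjusted p of 0.0055 to 0.068 over the alternatives. The most abundant SV2B sequence (TRINITY_DN3294_c0_g3_i1_2) also fell, with 44.4, 46.5 and 39.7 FPKM in males, against 53.8, 57.3 and 62.0 FPKM in females (limma: log2 fold change -0.40 with SE 0.08, adjusted p = 0.036). It lost its call with the library split (adjusted p = 0.093) and when any 1 library but female 1 was left out (0.014 to 0.14 over the alternatives). The single SV2A sequence had 4.39 ± 0.14 FPKM in males and 6.11 ± 0.50 FPKM in females (SD, n = 3 each) and was not called (limma adjusted p = 0.076).

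Summed over the 10 sequences, SV2 stood at 83.3, 85.8 and 76.3 FPKM in males, against 81.3, 88.7 and 95.7 FPKM in females. The sums of the sexes overlapped, while 4 single sequences differed. The SV2C sequence averaged 1.30 FPKM in males and 1.32 FPKM in females. The synaptic vesicle 2-related protein, a relative of SV2, averaged 15.4 FPKM in males and 15.0 FPKM in females.

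**Figure D3:**
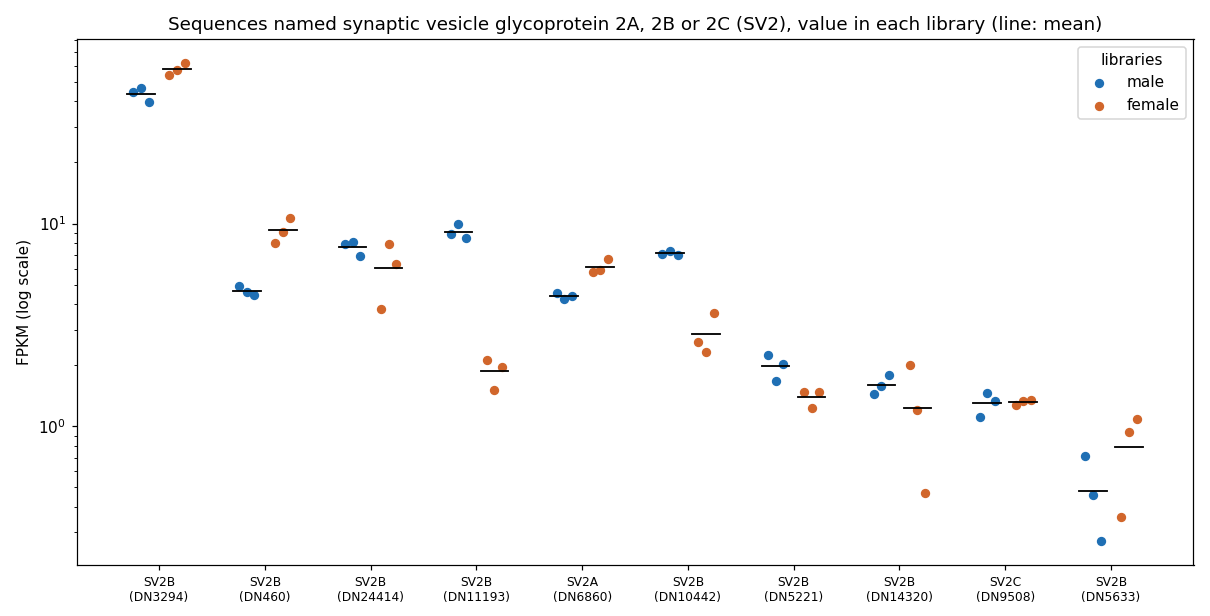
FPKM (log scale) in each library of the 10 SV2 sequences, males to the left of females for each sequence and a line at each mean. The DN11193 and DN10442 sequences are higher in all 3 males, the DN3294, DN460 and DN6860 sequences are higher in all 3 females, and of the other 5 only DN5221 has no overlap, with higher values in males.

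Of the 5 vesicular transporter sequences, which load transmitter into vesicles, 2 were tested and 1 was called. Vesicular glutamate transporter 1 isoform X1 (TRINITY_DN2767_c0_g1_i2_2) was the most abundant, with 13.3, 13.4 and 14.2 FPKM in males, against 16.3, 14.1 and 12.8 FPKM in females. The sexes overlapped (limma: log2 fold change -0.07 with SE 0.09, adjusted p = 0.72). The synaptic vesicular amine transporter-like sequence (TRINITY_DN19209_c0_g1_i1_1) was named for the transporter of dopamine, serotonin and octopamine. No Swiss-Prot match or Pfam domain was listed for it, so its name rests on the NR description alone. It had 1.80, 2.43 and 2.55 FPKM in males. In females it had 0.27 and 0.58 FPKM in females 1 and 2 and was listed at 0 in female 3. Only males reached 1 FPKM, so it passed the filter through that sex alone, and its test and call depend on males being high. The mean in males was 7.95 times that in females, a larger ratio than for any SV2 sequence, and the log2 fold change on the log2(FPKM + 1) scale was 1.36 (SE 0.28, limma adjusted p = 0.040), and 1.14 and 1.31 within the library sets. Leaving out any 1 of the 6 libraries, a pseudocount of 0.1 or 0.5 and the library split each ended this call (adjusted p = 0.071 with the split, 0.034 to 0.13 over the alternatives). A further amine transporter sequence (TRINITY_DN21325_c0_g2_i1_2), under the filter, had 1.33, 0.51 and 0.53 FPKM in males, against 0.76, 0.20 and 0.18 FPKM in females.

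Both sequences of the vesicular acetylcholine transporter, which marks cholinergic neurons, lay under the filter and were not tested. They are described here because their values were seen to separate. The first (TRINITY_DN8659_c0_g1_i1_1) had 0.43, 0.96 and 1.04 FPKM in males, against 0.14 and 0.13 FPKM in females 2 and 3, and was listed at 0 in female 1. The second (TRINITY_DN24575_c0_g1_i1_1) had 1.06, 0.56 and 0.80 FPKM in males, against 0.22, 0.44 and 0.25 FPKM in females.

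None of the 4 tested active zone and priming members was called. The unc-13 homolog 4B isoform X6 sequence (TRINITY_DN7251_c0_g1_i4_2), of the family that primes vesicles for fusion, was the most abundant, at 28.1 ± 1.6 FPKM in males and 28.5 ± 1.6 FPKM in females (SD, n = 3 each; log2 fold change -0.02, limma adjusted p = 0.89). Regulating synaptic membrane exocytosis protein 2 (TRINITY_DN2755_c1_g1_i19_2), the scaffold also known as RIM, had 7.93, 8.55 and 7.85 FPKM in males, against 6.17, 6.27 and 6.55 FPKM in females. Its sexes did not overlap, and the difference missed the threshold (limma: log2 fold change 0.31 with SE 0.08, adjusted p = 0.075). Protein unc-13 homolog B, nearest by name to the neuronal priming factor, averaged 1.40 FPKM in males and 0.91 FPKM in females. Regulating synaptic membrane exocytosis protein 1 varied from 0 to 3.74 FPKM among males and from 0.43 to 2.39 FPKM among females. Synapse-associated protein of 47 kDa (TRINITY_DN87_c1_g1_i26_1), a presynaptic protein first found in Drosophila, had 10.4 ± 0.4 FPKM in males and 9.83 ± 0.73 FPKM in females and was not called (limma adjusted p = 0.66).

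Endocytosis members and dynamins gave no call among 6 tested by limma, with a median log2 fold change of -0.10, and 1 of them, Synaptojanin-1, had an unadjusted p below 0.05. Dynamin isoform X4 (TRINITY_DN164_c1_g1_i5_2), the GTPase that cuts vesicles from the membrane, had 10.6, 11.2 and 10.1 FPKM in males, against 11.9, 11.1 and 11.4 FPKM in females (limma: log2 fold change -0.10 with SE 0.07, adjusted p = 0.48). Synaptojanin-1 (TRINITY_DN9879_c0_g2_i1_2), a lipid phosphatase that uncoats vesicles, had 4.42, 4.57 and 4.54 FPKM in males, against 4.88, 6.54 and 6.73 FPKM in females. The sexes did not overlap, and the females spread more widely (limma: log2 fold change -0.35 with SE 0.14, adjusted p = 0.19). Dynamin-1-like protein and the dynamin-like 120 kDa proteins act on mitochondria in other animals. Dynamin-1-like protein averaged 14.7 FPKM in males and 15.8 FPKM in females, and the 2 abundant dynamin-like 120 kDa sequences averaged 7.06 and 5.02 FPKM in males and 7.61 and 5.87 FPKM in females.

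In the adhesion group all 7 members tested had a log2 fold change above 0, with a median of 0.42, and 2 rose in males. Of all sequences tested 54.7% had a log2 fold change above 0, and of those with a usable name 56.4%. The 26 adhesion sequences include 16 named neuroligin, 8 named neurexin and 2 named syg-2, and only 7 passed the filter. Among these 7, a neuroligin (TRINITY_DN2412_c0_g2_i1_2) reached 1 FPKM in males only, so it passed the filter through that sex alone. Several of the 26 sequences lie in the same assembly cluster and may be pieces of 1 transcript, so they are not independent. The names are also uncertain: 7 of the 16 neuroligin sequences had a Pfam domain, and neuroligins belong to the carboxylesterase family, which also holds digestive and other esterases. A tested Neurexin-4 sequence (TRINITY_DN7144_c0_g1_i1_1) had axotactin of Drosophila as its Swiss-Prot match. A tested neuroligin sequence (TRINITY_DN11370_c0_g3_i1_1) had juvenile hormone esterase as its match.

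Neurexin-4 (TRINITY_DN10074_c0_g1_i1_1), which in Drosophila helps to build the septate junctions of glial and epithelial cells, had 27.2, 27.6 and 25.8 FPKM in males, against 18.4, 18.5 and 19.7 FPKM in females. The gap between the sexes was wider than the range within either (limma: log2 fold change 0.49 with SE 0.05, adjusted p = 0.0064). It was 0.51 and 0.49 within the library sets, and the call held whichever library was left out. It was lost without the mean-variance trend, within an adjusted p of 0.0035 to 0.061 over the alternatives. A list of cuticle proteins and chitin synthase, used as markers of the epidermis, was also higher in males for 28 of 44 tested. Of all sequences tested, 4.4% were called higher in males. Several of the 28 reached 1 FPKM in males only, so they passed the filter through that sex alone. The list summed to 2287 to 2517 FPKM in males and 560.8 to 680.1 FPKM in females. The part of epidermal cells in the Neurexin-4 difference was not tested.

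The most abundant neuroligin (TRINITY_DN4775_c0_g1_i1_1), described as Neuroligin-4, Y-linked after a human gene, had 11.6, 12.04 and 11.5 FPKM in males, against 6.64, 6.38 and 7.63 FPKM in females. The mean in males was 1.70 times that in females (limma: log2 fold change 0.69 with SE 0.09, adjusted p = 0.0090), and the differences within the library sets were 0.79 and 0.63. The call held with the library split and whichever library was left out (adjusted p of 0.0044 to 0.060 over all alternatives). Neuroligin-1 (TRINITY_DN4170_c0_g1_i2_1) had 3.10, 3.39 and 2.94 FPKM in males, against 1.64, 2.25 and 2.46 FPKM in females. Its sexes did not overlap, and it was not called (limma: log2 fold change 0.42 with SE 0.18, adjusted p = 0.23).

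Summed over the 16 neuroligin sequences, the level was 31.4, 26.2 and 25.2 FPKM in males, against 12.1, 13.1 and 20.1 FPKM in females. Female 3 lay between the other females and the males. The sums of the 8 neurexin sequences were 34.7, 32.4 and 31.1 FPKM in males, against 21.2, 26.2 and 25.3 FPKM in females. Most of this came from the called Neurexin-4 sequence, with 27.2, 27.6 and 25.8 FPKM in males and 18.4, 18.5 and 19.7 FPKM in females. The 5 sequences named neurexin-1 or neurexin-2 averaged at most 0.63 FPKM and 0 were tested. Of these, 3 had a higher mean in males and 2 in females. Of the 16 neuroligin sequences, 14 had a higher mean in males, and so did 5 of the 8 neurexin sequences. Under the filter this share was 81.8% of the neuroligins and 50% of the neurexins. It was 63.7% of all sequences with a usable name under the filter.

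Among the 19 adhesion sequences under the filter, 14 had a higher mean in males and 5 in females. Over all 91 members, 33 lay under the filter, and 66.7% of them had a higher mean in males, beside 63.7% of all sequences with a usable name that lay under it. Of these, the sequences named next were chosen after their values were seen. Synaptogenesis protein syg-2-like (TRINITY_DN8632_c0_g2_i1_1), named for a nematode protein that guides synapse position, had 1.24, 1.06 and 0.78 FPKM in males, against 0.075, 0.13 and 0.12 FPKM in females. Neuroligin 4-like (TRINITY_DN12519_c0_g1_i1_2) had 4.11, 0.60 and 1.06 FPKM in males, was listed at 0 in females 1 and 2 and had 0.40 FPKM in female 3. The remaining Neurexin-4 sequence (TRINITY_DN16119_c2_g2_i1_1), the most abundant member under the filter, was scattered, with 2.02, 0.97 and 0.42 FPKM in males, against 0.96, 5.70 and 0.50 FPKM in females.

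**Figure D4:**
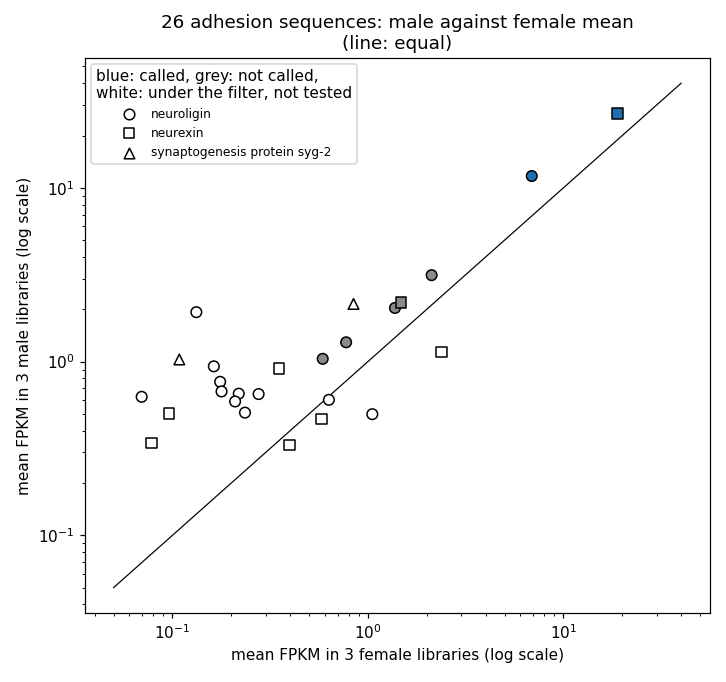
Mean FPKM in males (vertical, log scale) against mean FPKM in females (horizontal, log scale) of the 26 adhesion sequences, by kind and by whether they were tested. The line marks equal means; 21 of the points lie above it, and most of the sequences not tested lie below 1 FPKM in both sexes.

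The typical member tested varied little within a sex. The median coefficient of variation between libraries was 6.64% in males and 9.82% in females for members tested, beside 25.1% and 28.6% over all sequences tested. This comparison was not matched for level. Of the 58 members tested, 40 averaged at least 3 FPKM, while the median level over all 41283 sequences was 2.1 FPKM. Members tested lay a median 0.07, 0.11 and 0.04 log2 units above their own means in males 1, 2 and 3, and 0.08, 0.03 and 0.07 below them in females 1, 2 and 3. Adhesion members spread further, to 0.26, 0.28 and 0.21 above in males, against 0.44, 0.27 and 0.05 below in females. Female 3 thus lay nearest to the males for adhesion. Endocytosis members were the reverse, lowest in male 3 and highest in female 2.

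**Figure D5:**
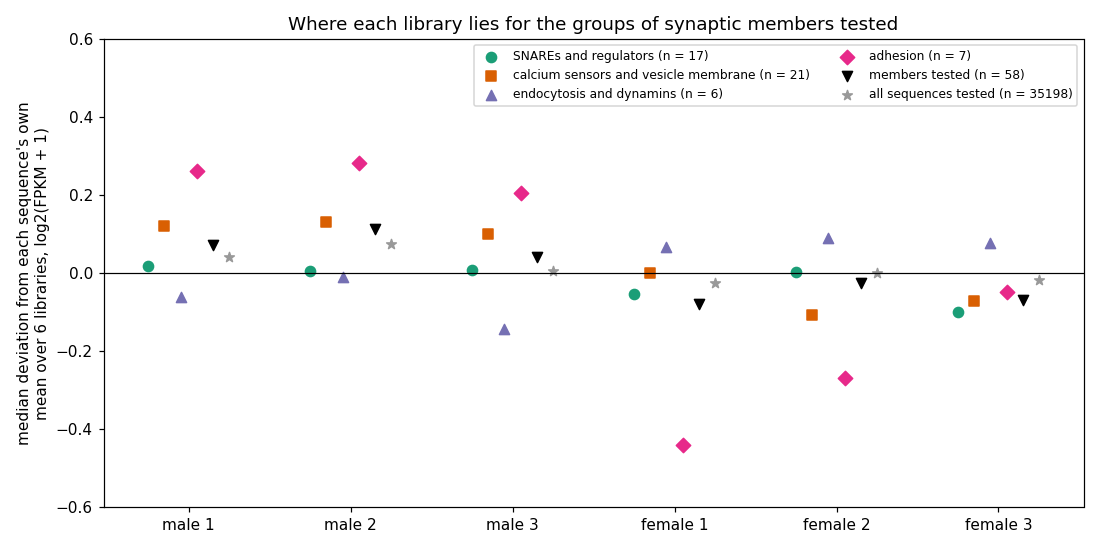
Median deviation (vertical axis, log2(FPKM + 1) units) of each library from each sequence's own mean, for 4 groups of members tested, all members tested and all sequences tested. Adhesion members lie above 0 in the 3 males and below 0 in the 3 females, with female 3 nearest to 0, and SNAREs stay within 0.10 of 0 in all 6 libraries.

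Marker lists of the cell types of the head were set beside these values. Of 14 neuronal marker sequences (ELAV-like and CUGBP Elav-like proteins, futsch, sodium channel para, neuroendocrine protein 7B2, prospero), 11 were tested, 1 (futsch) was higher in males and 1 (CUGBP Elav-like family member 1) in females. They summed to 121.8 to 137.4 FPKM in males and 114.3 to 119.4 FPKM in females, and none was at 0 in all libraries. CUGBP Elav-like family member 1, which entered through the word elav in its name, averaged 29.0 FPKM in males and 40.3 FPKM in females. It thus narrows the difference between the sums of the sexes. Futsch, the microtubule protein of axons, had 36.7, 42.8 and 35.0 FPKM in males, against 25.1, 25.4 and 17 FPKM in females (limma: log2 fold change 0.75, adjusted p = 0.047). The 3 ELAV-like sequences above 10 FPKM lay between -0.06 and 0.00 on the log2 fold change scale. The median over the 11 neuronal markers tested was 0.31, beside 0.17 over the members, with neuroendocrine protein 7B2 at 0.80, a second futsch sequence at 0.67 and prospero at 0.31, none of them called. The part of neuronal content in the members' differences was not tested. Of 12 glial sequences, 3 of them the Neurexin-4 members, 2 of 8 tested were higher in males and 1 in females. Their sums were 64.8 to 69.2 FPKM in males and 62.0 to 68.8 FPKM in females. The calls higher in males were Excitatory amino acid transporter 3 and the Neurexin-4 member itself, at 26.9 FPKM in males and 18.9 FPKM in females. The call higher in females was a draper sequence. The glial counts and sums thus include that member and are not separate from it. Muscle markers summed to 1883 to 2101 FPKM in males and 1731 to 2222 FPKM in females, with 5 of 33 tested higher in males and 3 in females. Eye markers summed to 110.4 to 114.9 FPKM in males and 84.3 to 91.6 FPKM in females (2 of 19 tested higher in males). This list, matched on words such as opsin, arrestin and chaoptin, also took in arrestin domain-containing proteins and Beta-arrestin-1. Its 2 calls were Arrestin domain-containing protein 1 and chaoptin isoform X1. Fat body markers summed to 35.0 to 41.8 FPKM in males and 95.6 to 115.3 FPKM in females (3 of 9 tested higher in females). Among these 3, an arylphorin sequence (TRINITY_DN18247_c0_g1_i1_1) reached 1 FPKM in females only, so it passed the filter through that sex alone. Hemocyte markers overlapped, at 310.1 to 443.9 FPKM in males and 371.8 to 472.7 FPKM in females (2 of 27 tested higher in males). Matching by name also put non-muscle myosin heavy chains in the muscle list and vitellogenin receptors in the fat body list. In the hemocyte list it took in phenoloxidase-activating factors and enzymes. The sums of these lists are therefore not of markers alone. The part of these other cell types was not tested either.

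Around the members, 5 lists of partner proteins were matched on the same descriptions, and 112 of their 156 sequences were tested. In these lists 22 sequences rose in males (19.6%) and 4 fell (3.57%), beside 4.4% and 2.7% of all sequences tested and 7.01% and 4.88% of those with a usable name. The 26 calls became 13 under the library split and 9 to 20 when 1 library was left out, lowest without male 1. Most of the calls lay in neural adhesion and guidance, where 17 of 50 tested were higher in males and 0 in females (median log2 fold change 0.39). Semaphorin-2A (TRINITY_DN3353_c0_g1_i3_1), a secreted guidance cue, had 8.94, 9.02 and 8.45 FPKM in males, against 1.82, 1.81 and 2.70 FPKM in females (limma: log2 fold change 1.67 with SE 0.15, adjusted p = 0.0035). Teneurin-a isoform X5 (TRINITY_DN2274_c0_g1_i3_2), which in Drosophila matches synaptic partners, had 9.39, 10.2 and 9.16 FPKM in males, against 3.03, 2.65 and 4.05 FPKM in females (limma: log2 fold change 1.33 with SE 0.14, adjusted p = 0.0059). Both calls were kept under every alternative run. Lachesin, an immunoglobulin protein of the cell surface, averaged 4.77 FPKM in males and 1.44 FPKM in females (1.23), and its call ended without male 1 or male 2 (adjusted p up to 0.069 without a library).

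Of the 22 vesicle traffic and SNARE partners tested, 2 were higher in males and 3 in females (median log2 fold change 0.05), and of 16 endocytosis and recycling partners 1 was higher in females (median 0.01). Vesicle-fusing ATPase 1 (TRINITY_DN3764_c0_g1_i2_1), known as NSF, which takes spent SNARE complexes apart, had 19.8, 20.0 and 19.0 FPKM in males, against 27.2, 26.6 and 28.3 FPKM in females (limma: log2 fold change -0.46 with SE 0.05, adjusted p = 0.0060). AP-2 complex subunit alpha (TRINITY_DN3052_c0_g1_i2_2), an adaptor that brings clathrin to the membrane, had 23.2, 22.6 and 23.3 FPKM in males, against 30.6, 32.7 and 33.0 FPKM in females (limma: log2 fold change -0.46 with SE 0.05, adjusted p = 0.0059). Ras-related protein Rab-39B, a membrane traffic GTPase, also fell, to 39.3 ± 0.9 FPKM in males against 55.2 ± 2.1 FPKM in females (-0.48, limma adjusted p = 0.0044; SD, n = 3 each). All 3 calls held with the library split and whichever library was left out, and were lost without the mean-variance trend (adjusted p = 0.062 to 0.066). Of the exocyst, which tethers vesicles to the membrane, 2 sequences of component 4 rose (0.53 and 0.49) and component 8 fell (-0.36). None of these 3 calls held with the library split, and those of component 8 and of the first component 4 sequence were also lost when any 1 library was left out, that of the second when any 1 but female 1 was.

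Of 15 tested enzymes and transporters of transmitters, 2 rose in males and none fell. Aromatic-L-amino-acid decarboxylase (TRINITY_DN5026_c0_g1_i1_2), which makes dopamine and serotonin and also serves cuticle tanning, had 20.4, 17.7 and 16.6 FPKM in males, against 11.7, 11.2 and 10.6 FPKM in females (limma: log2 fold change 0.65 with SE 0.09, adjusted p = 0.012). It was not called without male 2 (adjusted p = 0.052) or without the mean-variance trend. Excitatory amino acid transporter 3, which clears glutamate, averaged 5.67 FPKM in males and 2.88 FPKM in females (log2 fold change 0.78). It was no longer called once any 1 library was left out, or under the library split (adjusted p = 0.084). Of 9 active zone and scaffold partners tested, Caskin-1 alone was called, at 10.8 FPKM in males and 8.22 FPKM in females (0.35), a call lost with the library split, with median-of-ratios scaling and when any 1 library but female 1 was left out.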

How the data were processed

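RNA from heads was sequenced in 3 male and 3 female libraries. Per the labels' protocols, Trizol-extracted RNA was made into stranded mRNA libraries. Trimmomatic, HTSeq and R 3.2.0 are named in the submitters' processing notes, without roles. Each deposited value is the FPKM that the authors calculated for 1 assembled sequence. The aligner is not given in the sources used here. Descriptions by the authors name sequences by similarity to other species, and near-identical copies may share reads. Depth is unknown, so no counting interval was given and no count test was used.

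The filter kept the 35198 sequences that reached 1 FPKM in 3 or more of 6 libraries. Values were turned into log2(FPKM + 1), a scale that understates changes of low sequences. Males were compared with females with limma 3.58.1 in R 4.3.3, two-sided, with a mean-variance trend and Benjamini-Hochberg adjustment over all kept sequences. The members, partner lists, markers, library split and tests were chosen with earlier results of these data known. List words were matched from the start of a word, so rab-3 also took in other Rab proteins. The hemocyte words alone were matched anywhere in a name. Named members were every called one, the 3 most abundant in each of 8 role groups (1 of which, postsynaptic scaffold, had no member), and the 2 in each with the largest change among those with a mean of at least 3 FPKM. The other members and markers given with values were picked after their values were seen. The alternatives were other pseudocounts, filters and scalings, a replicate block, the library split, no trend, and each library left out. Of each partner list up to 3 called in each direction were named.

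The fit was tested on simulated data of 35198 sequences with 200 changed, drawn from those with a mean log2 level above 2: 56% of the changes by a log2 fold of 1 and 92% of those by 2 were recovered, with 9 false calls among 157, and 0 calls with nothing changed.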

Additional observations from a re-analysis of the deposited data

How the results depend on the processing

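The 11 calls among synaptic members (8 higher in males, 3 in females) stood at 10 to 12 under other pseudocounts, filters and scalings and with NR names alone, and 9 without the mitochondrial dynamins and other syntaxins. Under the library split 5 were called (4 and 1), all 5 among the 11, without the mean-variance trend 5 (4 and 1), and at an absolute log2 fold change of at least 1, 3 (3 and 0). Leaving out 1 library gave 3 to 8 calls (3 to 6 higher in males, 0 to 2 in females), lowest without male 2 or male 3. Of the 26 partner calls (22 and 4), the split kept a count of 13 (10 and 3), and no trend 12 (12 and 0). Leaving out 1 library gave 9 to 20 (6 to 17 higher in males). Over all sequences the 2501 calls (1549 and 952) became 1136 (712 and 424) with the split, 1541 (999 and 542) without the trend and 822 to 1776 without a library (467 to 1122 and 349 to 654). Median-of-ratios scaling gave 1324 higher in males and 1330 in females, and moved the median log2 fold change of all sequences from 0.05 to -0.01. The causes were not tested. The 27 named members tested gave 403 values, many of them from members that had no call to lose. The 62 values that lost their call all belonged to the 11 called members. No called member changed direction, and 13 values of 5 uncalled members with small or scattered differences did. Leaving out 1 library, their log2 fold changes ran from -0.134 to 0.0079 for Synaptobrevin, -0.144 to 0.0172 for vesicular glutamate transporter 1, -0.0665 to 0.0166 for unc-13 homolog 4B, -0.0248 to 0.0154 for Extended synaptotagmin-2 and -0.32 to 0.80 for regulating synaptic membrane exocytosis protein 1. Extended synaptotagmin-2 was also at 0.0128 with a common FPKM sum, and regulating synaptic membrane exocytosis protein 1 at -0.37 with a pseudocount of 0.1 and -0.33 under the split.

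The replicate numbers were not taken as pairs. Same-numbered libraries 1, 2 and 3 correlated at 0.11, 0.12 and -0.05 in their deviations. Libraries 1 and libraries 2 of the sexes share a library set and libraries 3 do not, so these values cannot decide on pairing. A replicate block left 1 member called (1 and 0), 6 partners (4 and 2) and 631 of all sequences (373 and 258). Depth is unknown, so what it limits could not be computed.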
